A study of Danio rerio with 6 samples.

Results

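A set of genes grouped here as inhibitory neuron fate genes was followed in single cells of the zebrafish eye at 48 hours post-fertilisation (hpf). The 6 genes, of 25109 listed in the files, were foxn4 (ENSDARG00000010591), ptf1a (ENSDARG00000014479), prdm13 (ENSDARG00000078701), barhl2 (ENSDARG00000104361), bhlhe22 (ENSDARG00000058039) and mab21l1 (ENSDARG00000102047). They were chosen by name, with earlier results of these data known, and all 6 passed the filter on low counts in each comparison. Their unique molecular identifiers (UMIs, each marking 1 captured transcript) were read in barcodes with at least 1000 genes and at most 10% mitochondrial UMIs. This rule kept 5606 barcodes, hereafter cells, of which 5107 lay in retinal clusters and 499 in clusters led by markers of epidermis, mesenchyme or pigment cells. The order of use of the 6 genes was read by setting dividing cells, with at least 1 UMI of mki67 or pcna, against non-dividing cells, with a UMI of neither. The inhibitory side was read with slc32a1, the vesicular transporter of GABA and glycine, and with lhx1a, a LIM homeobox gene of horizontal cells.

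The cells came from 6 droplet libraries of dissected eyes, 3 enriched for mCherry and 3 enriched for eGFP by fluorescence-activated sorting. All embryos were F1 NRE-eGFP/HS5-mCherry dual reporters, in which the human PAX6 enhancers NRE and HS5 drive eGFP and mCherry, and all were kept in PTU to block pigment. No library of unsorted or reporter-free eyes was analysed here, and each library pooled embryos. By the study's sorting scheme, the first mCherry sample held cells positive for both reporters, while later ones held all mCherry-positive cells, if the replicate numbers follow the sorting rounds. The labels give replicates as separate samples and nothing more, so p-values measure only the spread between these libraries, which may be technical, and take the libraries as independent.

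In mouse, the forkhead factor Foxn4 acts in dividing retinal progenitors and lies upstream of Ptf1a, a bHLH factor that works in a complex with an E protein and RBPJ. Mouse retinas without either gene lose horizontal cells and many amacrine cells. Prdm13, a zinc finger protein, acts downstream of Ptf1a in amacrine cells, and the homeobox gene Barhl2 and the bHLH gene Bhlhe22 specify amacrine subtypes in mouse, Barhl2 also acting in ganglion cells and Bhlhe22 in OFF bipolar cells. Mab21l1 is a vertebrate relative of the worm gene mab-21 and is needed for eye development in mouse.

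The libraries differed in depth. Total UMIs were 14307132 to 86803928 a library, the rule kept 85 to 2303 cells, and the median was 5017 to 12222 UMIs a cell. Of 5602 distinct barcodes, 4 occurred in more than 1 library. Doublets were not removed. Both libraries numbered 1 stood apart: their slc32a1-positive cells had medians of 25114 (mCherry-enriched) and 17334.5 UMIs (eGFP-enriched), against 5186 to 7242 in the other 4. An unnamed cluster of 237 cells with a median of 48798 UMIs held 39 and 153 of its cells from those libraries, all of them in the dividing gate, and 62.9% of its cells had a slc32a1 UMI. A bipolar-like cluster of 152 cells (cluster 14) was also deep, with a median of 21293 UMIs, and held 18 and 108 cells from those libraries. Of its cells 86.2% were in the dividing gate and 71.7% had a slc32a1 UMI. It is kept where the high-UMI cluster is left out. Results that move without both libraries numbered 1 are given both ways. That setting was chosen after seeing the data. The gates matched their cell types only in part, since slc32a1 was detected in 85.8% of amacrine-like and 90% of cholinergic amacrine-like cells, but lhx1a in 35.4% of horizontal-like cells. The dividing gate was loose, since 1 UMI of mki67 or pcna placed a cell in it: it held 99.7% of progenitor-like cells, but also 49.2% of RGC-like, 42.3% of amacrine-like and 44.5% of cholinergic amacrine-like cells, and 69.7% of non-retinal cells. With each cell thinned to 1500 UMIs it held 93.8%, 19.3%, 16.3%, 17.3% and 42.3% of these classes. Horizontal-like cells lay mostly in the dividing gate, at 85.0%, or 75.6% when thinned, with mki67 at 1045 ± 105 CPM (SD, n = 3 libraries). Dividing against non-dividing cells is therefore not a contrast of progenitors with all inhibitory neurons. In barcodes with at most 100 UMIs, which hold free RNA, pcna was at 413 to 659 CPM and mki67 at 61.0 to 234 CPM, against 63.9 to 77.9 and 50.3 to 87.5 CPM on average in the amacrine-like, RGC-like and cholinergic amacrine-like classes, and the part of free RNA in the gate was not tested. A second cluster without a name, of 113 cells led by elavl3, elavl4 and pou3f3b, held lhx1a in 21.2% of its cells. Levels are given in CPM, the UMIs of a gene per 1000000 UMIs of the summed cells of a gate in each library.

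Summed over the gate, dividing cells held more foxn4 than non-dividing cells, while the other 5 genes were lower there. In dividing cells the foxn4 level was lowest at 170.2, 225 at the median and highest at 291 CPM over the 6 libraries, against 18.6, 29.1 and 41.1 CPM in non-dividing cells. The gates did not overlap, and foxn4 rose by 3.16 on the log2 scale (SE 0.15, adjusted p = 3.38e-08, edgeR quasi-likelihood test with Benjamini-Hochberg adjustment). In the free RNA, foxn4 stood at 34.9 to 101 CPM, so its level in non-dividing cells was near or below that of the free RNA. This comparison called 44.3% of 9466 genes, 23.7% higher and 20.6% lower, so being called sets a member little apart from other genes. The size of the foxn4 change can be read against a median absolute change of 0.43 over all genes. The foxn4 level was not shared by all classes with mostly dividing cells. Progenitor-like cells held 607 ± 78.7 CPM (SD, n = 5). Stem cell-like cells, 96.75% of them dividing, held 78.3 ± 31.5 CPM (n = 6), and horizontal-like cells 62.9 ± 87.3 CPM (n = 3).

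For ptf1a, which lies downstream of Foxn4 in mouse, dividing cells had 7.51, 14.8 and 20.9 CPM (lowest, median, highest). Non-dividing cells had 0, 19.0 and 43.3 CPM. These ranges overlapped, and ptf1a fell by 0.52 (SE 0.20, adjusted p = 0.0473 in edgeR). That call was lost in 12 of 21 alternatives, 4 of which left out mCherry-enriched library 2 or 3 or eGFP-enriched library 1 or 3 (changes of -0.41, -0.52, -0.59 and -0.37), and it rested on 954 ptf1a UMIs in dividing and 245 in non-dividing cells. Its target in mouse, prdm13, had 30.7, 61.2 and 144 CPM in dividing cells and 89.8, 110.2 and 137 CPM in non-dividing cells. It was lower in dividing cells in 5 of 6 libraries, mCherry-enriched library 2 being the exception with 144 against 102 CPM. The prdm13 change was -0.63 (SE 0.19, adjusted p = 0.0170 in edgeR), and 4 of 21 alternatives lost the call. Among these, the change was -0.52 without mCherry-enriched library 3 and -0.51 without eGFP-enriched library 3.

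The falls of barhl2, bhlhe22 and mab21l1 were more even. The homeobox gene barhl2 had 27.3, 137 and 186 CPM in dividing cells, against 242, 326 and 670.4 CPM in non-dividing cells, and its ranges did not overlap. It fell by 1.15 on the log2 scale (SE 0.27, adjusted p = 0.00332 in edgeR). The bHLH gene bhlhe22 had 109, 201 and 287 CPM in dividing cells and 203, 429 and 582 CPM in non-dividing cells, overlapping between gates but lower in dividing cells of every library. Its change was -0.83 (SE 0.15, adjusted p = 0.000681 in edgeR). For mab21l1, dividing cells had 139.9, 213 and 288 CPM and non-dividing cells 358, 461 and 618 CPM, without overlap. It fell by 0.86 (SE 0.14, adjusted p = 0.000190 in edgeR). The calls of foxn4, barhl2, bhlhe22 and mab21l1 held in each of 21 alternatives. Dividing cells were also deeper, with median UMIs of 4978 to 14674 a cell against 3798 to 5448 in non-dividing cells. With each cell thinned to 1500 UMIs, foxn4 still rose by 2.33 and barhl2 and mab21l1 fell by 1.28 and 0.95.

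**Figure D1:**
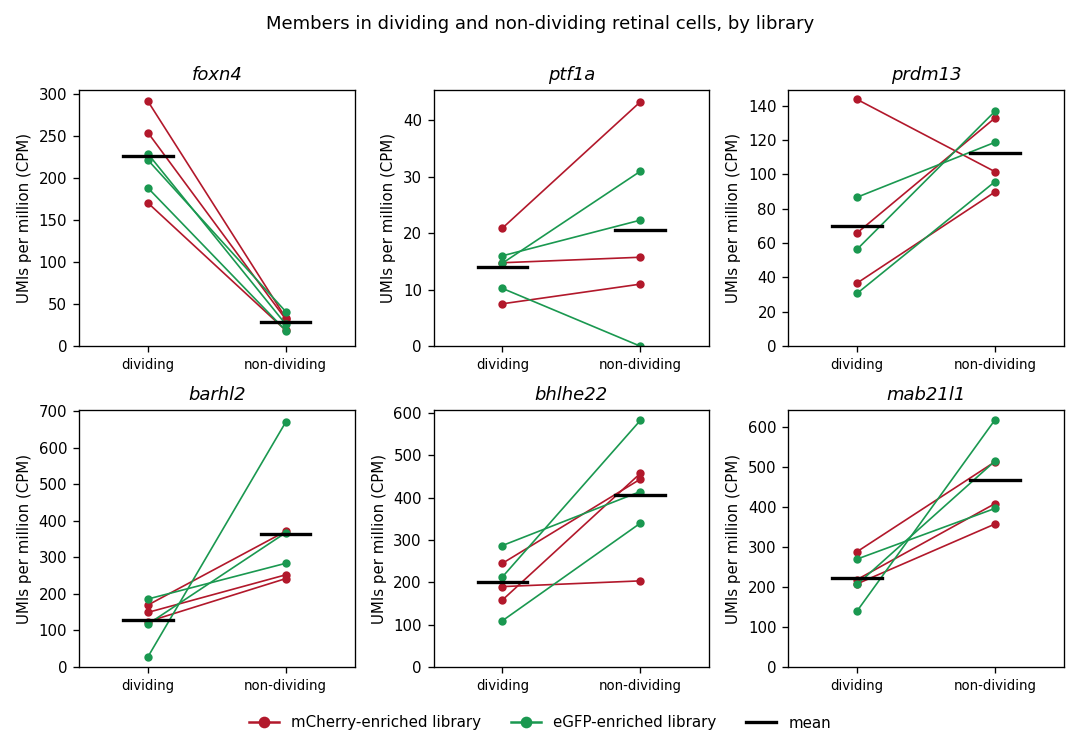
Level of each gene (CPM) in dividing and non-dividing retinal cells, with 1 line per library (red mCherry-enriched, green eGFP-enriched) and black bars at the means. The foxn4 values of dividing cells (170.2 to 291 CPM) lie above all those of non-dividing cells (18.6 to 41.1 CPM), while barhl2 and mab21l1 lie lower in dividing cells in all 6 libraries.

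Of 14 neurogenic regulators, 11 rose in dividing cells, 0 fell and 3 did not pass, with a median change of 1.30 over the list. The hes family gene hes2.2 rose by 3.27, the Notch ligands dlc and dla by 2.81 and 2.19, and the proneural bHLH genes ascl1a and atoh7 by 2.65 and 1.26. Of 5 partners of Ptf1a (E proteins and RBPJ), 4 rose and 1 did not pass, the RBPJ gene rbpjb by 0.79. Of 18 amacrine transcription factors, 16 fell and 2 did not pass, with a median of -1.25, and the AP-2 genes tfap2e, tfap2b and tfap2a changed by -1.76, -1.63 and -1.42. Of 8 inhibitory transmitter genes, 6 fell and 2 did not pass, among them gad2 at -1.15 and gad1b at -1.10, the enzymes that make GABA. Horizontal cell genes went the other way, with 4 of 8 higher in dividing cells and 4 not passing, such as rem1 at 1.34 and onecut1 at 0.68, while prox1a was at -0.24 (adjusted p = 0.0796 in edgeR). The dividing gate itself held 85.0% of horizontal-like cells. Of 6 measured relatives of the members, 5 fell, including bhlhe23 at -1.11, mab21l2 at -0.92 and prdm8 at -0.56, and foxn2b, named after its values were seen, rose by 0.48. Of 7 excitatory neuron genes 5 fell and 2 did not pass, with a median of -0.998. The median over all genes was 0.00.

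The order was also read cell by cell, as the share of dividing cells among cells with and without each gene, after thinning all cells to 1500 UMIs. Among foxn4-positive cells 78.3% ± 7.65 were dividing, against 43.7% ± 10.5 of foxn4-negative cells (SD, n = 6 libraries), and positive cells were higher in 6 of 6. The share was 28.3% ± 13.9 among barhl2-positive and 53.9% ± 11.6 among barhl2-negative cells (SD, n = 6). It was 35.5% ± 15.4 against 54.5% ± 9.69 for mab21l1 and 42.4% ± 13 against 51.4% ± 10.8 for bhlhe22, again positive before negative cells. Each of these 4 genes moved the same way in all 6 libraries, and each had adjusted p = 0.0469 in an exact two-sided sign-flip permutation test over libraries, with a raw p of 0.03125, the smallest that 6 libraries allow. All 4 calls were lost with cells thinned to 1000 UMIs or at most 5% mitochondrial UMIs (adjusted p = 0.075 each in the exact permutation test) and with non-retinal clusters kept (0.0625 to 0.225), and all 4 kept their direction there. The test takes the 6 libraries as independent, while same-numbered libraries deviated together, and with these averaged the 3 numbers cannot go below an exact permutation p of 0.25, so that 0 of 6 genes passed. For prdm13 the shares were 33.8% ± 12.8 in positive and 49.1% ± 11.4 in negative cells over 5 libraries (exact permutation test, adjusted p = 0.075), where 5 libraries cannot go below 0.0625. Only 2 libraries had 10 or more ptf1a-positive cells, with 52.2% and 26.8% dividing among positive cells against 61.6% and 37.8% among negative cells, too few for a test.

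Of 15 pairs of genes compared in this share, 0 passed after adjustment, and an unadjusted exact permutation p of 0.03125, the smallest possible, was reached by foxn4 against barhl2, bhlhe22 and mab21l1 and by barhl2 against bhlhe22. The share among foxn4-positive cells was higher by 49.97 percentage points than among barhl2-positive cells (SD 15.1), by 42.7 than among mab21l1-positive cells (SD 11.8) and by 35.9 than among bhlhe22-positive cells (SD 13.6), in 6 of 6 libraries each (exact permutation test, adjusted p = 0.117). The barhl2-positive cells were 14.1 points below the bhlhe22-positive cells (SD 4.62), in 6 of 6 libraries, at the same adjusted p = 0.117 in the exact permutation test. The share among prdm13-positive cells was -0.27 points from that among mab21l1-positive cells (SD 9.72), within their spread. Without thinning, the share of dividing cells was 89.2% among foxn4-positive and 52.9% among foxn4-negative cells, but it was 67.6% against 64.8% for bhlhe22 and 71.6% against 66.3% for ptf1a, the other direction from the thinned cells, and none of the 6 genes passed (lowest adjusted p = 0.1875 in the exact permutation test). Detection was lower in the 499 non-retinal cells, pooled over libraries and thinned the same way (median 12460 UMIs before thinning). Of them, 1.40% had foxn4, 0.200% ptf1a, 0.802% prdm13, 1.20% barhl2, 2.405% bhlhe22 and 8.42% mab21l1. As means over libraries these shares were 2.44%, 1.11%, 1.53%, 2.55%, 4.19% and 7.36%. The retinal libraries averaged 17.3%, 2.08%, 7.74%, 16.7%, 21.9% and 26.6% for the same genes in that order.

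**Figure D2:**
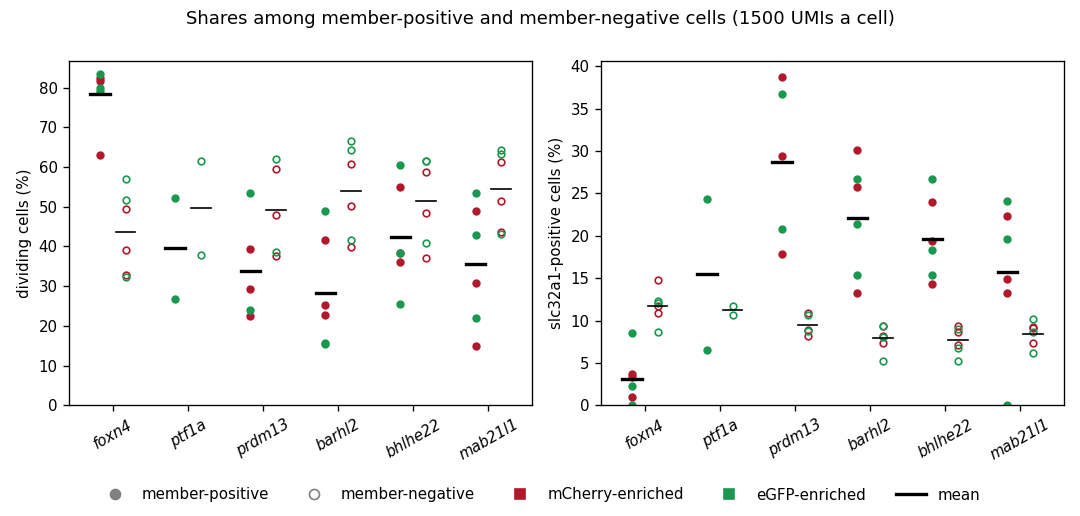
Percent of dividing cells (left) and of slc32a1-positive cells (right) among cells with a UMI of each gene (filled circles) and without one (open circles), all cells thinned to 1500 UMIs, 1 circle per library and bars at the means. Dividing cells make up 78.3% of foxn4-positive and 28.3% of barhl2-positive cells on average, and slc32a1-positive cells 3.14% and 22.1%.

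Levels were also laid out over finer gates, from cycling cells to non-dividing slc32a1-positive cells, as a description without a test. The steps were cells with mki67 and neither slc32a1 nor lhx1a, cells with pcna but not mki67 and neither marker, dividing slc32a1-positive cells and non-dividing slc32a1-positive cells. Cells are ordered here by their gates and not by descent, and non-dividing cells with neither slc32a1 nor lhx1a (1093 cells) stand beside them. That last gate can hold inhibitory neurons, since slc32a1 was detected in 85.8% of amacrine-like and lhx1a in 35.4% of horizontal-like cells. The level of foxn4 was 276 ± 43.3, 60.5 ± 34.0, 148 ± 91.7 and 19.5 ± 14.3 CPM at these steps (SD, n = 6, 6, 5 and 5 libraries). It did not overlap between the first step (236 to 343 CPM) and the second (40.9 to 126 CPM). At the third step foxn4 was higher than at the second in each of the 5 libraries. The rise was largest in both libraries numbered 1, from 43.6 and 68.8 to 274 and 212 CPM. In mCherry-enriched libraries 2 and 3 and eGFP-enriched library 3 it went from 41.9, 40.9 and 41.2 to 55.4, 117 and 83.5 CPM. At the second step ptf1a stood at 31.4 ± 12.7 CPM, above its 9.81 ± 7.61 at the first in all 6 libraries, and the later steps held 23.9 ± 14.7 and 32.6 ± 15.8 CPM. These ptf1a levels rest on few UMIs, with 96 at the second step over all libraries. In eGFP-enriched library 2 the first and second steps held 1 ptf1a UMI each, in 28 and 11 cells. The ranges of ptf1a overlapped between all neighbouring steps. The cells of the second step held pcna at 354 to 1313 CPM over libraries, overlapping the 413 to 659 CPM of the free RNA. Their median was 3217 to 6938.5 UMIs a cell, against 5917.5 to 10576.5 at the first step. The part of free RNA or depth in the second step was not tested.

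The means of prdm13, barhl2, mab21l1 and bhlhe22 were higher at the last step than at the first. The level of prdm13 was 22.9 ± 8.31, 50.6 ± 31.3, 251 ± 251 and 251 ± 71.0 CPM, the third mean resting on 692.5 CPM in the 13 cells of mCherry-enriched library 2. The level of barhl2 was 44.1 ± 31.1, 156 ± 53.0, 378 ± 145 and 559 ± 185 CPM, with no overlap between the first step (0 to 82.1 CPM) and the second (111 to 260.5 CPM). For mab21l1 the steps held 136 ± 31.1, 293 ± 67.9, 426 ± 147 and 621 ± 148 CPM, again with no overlap between the first (92.3 to 185 CPM) and the second (238 to 398 CPM). The level of bhlhe22 stayed near 123 ± 28.7 and 145 ± 56.1 CPM at the first 2 steps and reached 526 ± 275 and 854 ± 322 CPM in slc32a1-positive cells. In non-dividing cells with neither marker, foxn4 was at 33.7 ± 10.5, ptf1a at 16.6 ± 14.8, prdm13 at 39.8 ± 20.1, barhl2 at 176 ± 36.4, bhlhe22 at 159.9 ± 77.8 and mab21l1 at 378 ± 90.6 CPM (SD, n = 6). In these cells barhl2 (136 to 214 CPM) and mab21l1 (295 to 544 CPM) lay above the first step without overlap. Levels above the first step were thus not particular to cells with a slc32a1 UMI. Both genes overlapped between these cells and the pcna-only cells, and their means were below those of dividing and non-dividing slc32a1-positive cells. The part of inhibitory neurons without a detected UMI in the means of cells with neither marker was not tested. Free RNA held 55.4 to 116 CPM of barhl2, 98.6 to 182 of mab21l1, 123 to 229 of bhlhe22, 37.9 to 66.4 of prdm13 and 5.41 to 13.6 of ptf1a, so the first step of these genes lay near or below it.

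**Figure D3:**
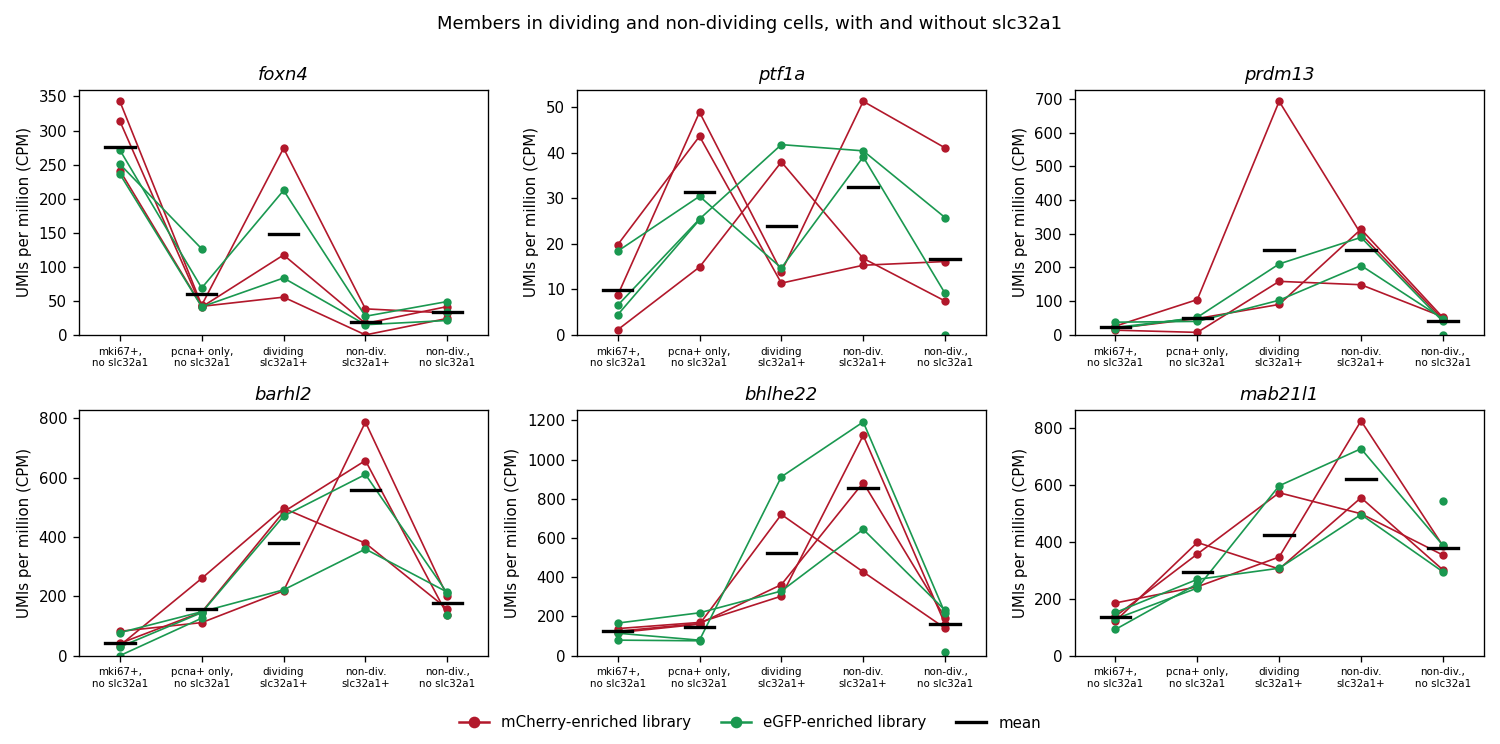
Level of each gene (CPM) in 5 gates, from left mki67-positive and pcna-only cells without slc32a1 or lhx1a, dividing and non-dividing slc32a1-positive cells, and non-dividing cells with neither marker, 1 line per library (red mCherry-enriched, green eGFP-enriched; a library with under 10 cells in a gate is left out there) and bars at the means. The foxn4 mean is highest in the mki67-positive gate (276 CPM), those of barhl2, bhlhe22 and mab21l1 in non-dividing slc32a1-positive cells (559, 854 and 621 CPM), and mab21l1 stands at 378 CPM in the last gate.

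Co-use with the inhibitory machinery was tested by setting slc32a1-positive against slc32a1-negative cells. The positive gate was not confined to amacrine-like cells, of which 85.8% were in it. A slc32a1 UMI was also found in 15.1% of 1257 bipolar-like, 15.5% of 470 photoreceptor-like, 12.1% of 522 RGC-like and 9.54% of 681 progenitor-like cells. These shares pool unlike libraries. In RGC-like cells slc32a1 stood at 67.0 (mCherry-enriched) and 75.8 CPM (eGFP-enriched) in the libraries numbered 1. It was at 0 and 26.4 CPM in mCherry-enriched libraries 2 and 3, and 2.04 CPM in eGFP-enriched library 3. A slc32a1 UMI was found in 71.7% of bipolar-like cluster 14, but in 9.30% and 5.23% of bipolar-like clusters 0 and 2. In the high-UMI cluster of 237 cells it was found in 62.9%. Free RNA held 17.2 to 51.8 CPM of slc32a1, and its part in this gate was not tested. In slc32a1-positive cells 4 of the 6 genes rose, foxn4 was lower and ptf1a did not pass. The comparison called 6.25% of 11400 genes, 3.13% higher and 3.11% lower, beside which 5 of 6 members were called. The level of prdm13 in slc32a1-positive cells was 95.9, 156 and 449 CPM (lowest, median, highest of 6 libraries), against 21.5, 32.6 and 68.0 CPM in slc32a1-negative cells, with no overlap. It rose by 2.12 on the log2 scale (SE 0.21, adjusted p = 0.000490 in edgeR), the largest change of the 6 genes in size. For barhl2 the positive cells had 225, 492 and 878 CPM and the negative cells 39.9, 97.7 and 122 CPM, also without overlap, and the change was 1.997 (SE 0.28, adjusted p = 0.00344 in edgeR). For bhlhe22 they had 324, 568 and 1084 CPM against 67.5, 143 and 174 CPM, a change of 1.87 (SE 0.26, adjusted p = 0.00309 in edgeR). For mab21l1 they had 312, 494 and 677 CPM against 179, 211 and 238 CPM, a change of 1.04 (SE 0.14, adjusted p = 0.00276 in edgeR). Neither bhlhe22 nor mab21l1 overlapped between the gates, and all 4 genes were higher in 6 of 6 libraries and kept their calls in each of 19 alternatives. In slc32a1-negative cells the levels of prdm13, barhl2 and bhlhe22 were near those of the free RNA.

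The genes placed upstream in mouse, foxn4 and ptf1a, behaved otherwise. In slc32a1-positive cells foxn4 had 21.1, 65.6 and 268 CPM, against 121, 206 and 293 CPM in slc32a1-negative cells, overlapping but lower in 6 of 6 libraries. Its change was -1.22 (SE 0.31, adjusted p = 0.0415 in edgeR), a call lost in 7 of 19 alternatives, among them leaving out mCherry-enriched library 2 or 3 or eGFP-enriched library 2 or 3 (-1.10, -1.085, -1.16 and -1.002). For ptf1a the positive cells had 11.5, 20.4 and 40.9 CPM and the negative cells 4.32, 16.8 and 29.3 CPM, overlapping, with a change of 0.41 (SE 0.39, adjusted p = 0.593 in edgeR). Both results moved without the libraries numbered 1, where ptf1a rose by 1.36 (SE 0.27, adjusted p = 0.000392 in edgeR) and foxn4 fell by 2.02 (SE 0.17, adjusted p = 3.48e-09 in edgeR). The slc32a1 level within slc32a1-positive cells was 149.9 and 146 CPM in those libraries, against 476 to 596 CPM in the other 4, and the part of depth in these values was not tested.

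**Figure D4:**
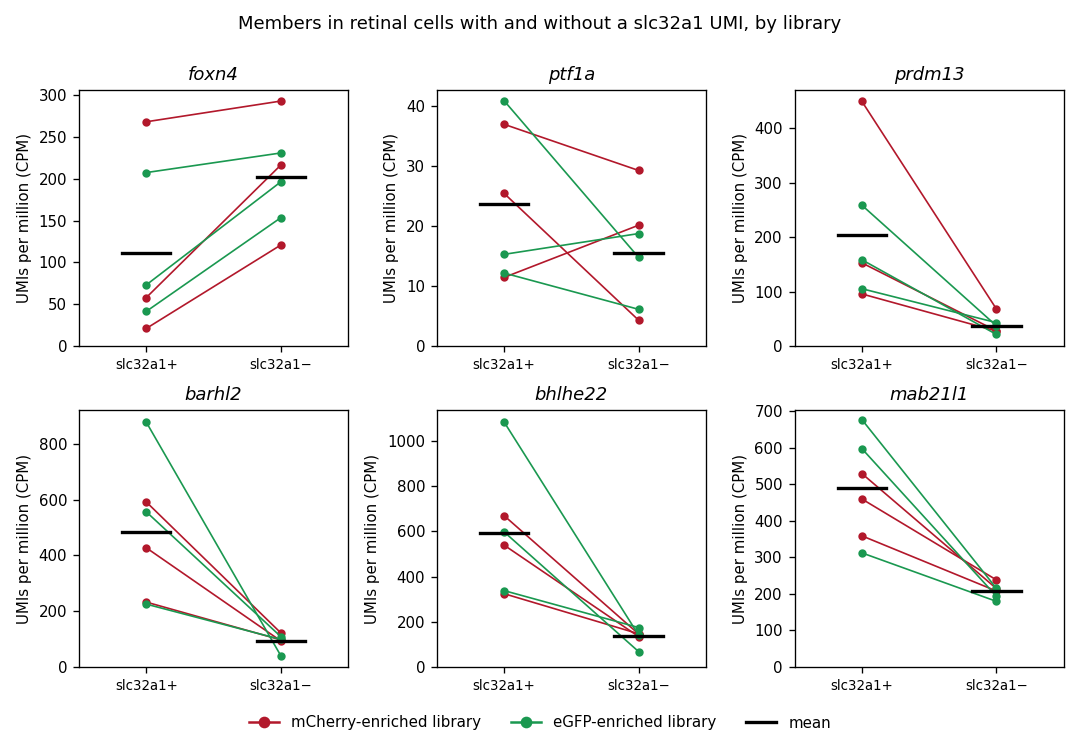
Level of each gene (CPM) in retinal cells with and without a slc32a1 UMI, 1 line per library (red mCherry-enriched, green eGFP-enriched) and bars at the means. In all 6 libraries prdm13, barhl2, bhlhe22 and mab21l1 are higher in slc32a1-positive cells, prdm13 at 95.9 to 449 CPM against 21.5 to 68.0 CPM, while the upper 2 foxn4 lines are the libraries numbered 1.

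Of 18 amacrine transcription factors, 16 rose in slc32a1-positive cells, 0 fell and 2 did not pass, with a median of 2.54 against -0.05 over all genes. The nuclear receptor gene nr4a2a rose by 3.90, and tfap2a, tfap2e and tfap2b by 3.68, 3.48 and 3.25. Of 7 inhibitory transmitter genes beside slc32a1, 3 rose and 4 did not pass: gad2 by 3.80, gad1b by 3.54 and the GABA transporter gene slc6a1a by 2.56. Of 14 neurogenic regulators 9 fell and 5 did not pass, with ascl1a at -1.39 and atoh7 at -1.23, and of 5 partners of Ptf1a only rbpjb fell, at -0.77. None of 8 horizontal cell genes passed (onecut1 -0.05, prox1a -0.45). Of 6 relatives of the members 3 rose, foxn3 by 1.70, mab21l2 by 1.39 and prdm8 by 1.27, while bhlhe23 was at 0.31 (adjusted p = 0.321 in edgeR). Both mab21l1 and mab21l2 rose, while bhlhe22 passed and bhlhe23 did not, a difference between the paralogs that was not itself tested. Of 8 excitatory neuron genes 3 fell and 5 did not pass.

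At a fixed depth of 1500 UMIs a cell, slc32a1 was detected in 28.7% ± 9.29 of prdm13-positive cells, against 9.45% ± 1.21 of prdm13-negative cells (SD, n = 5 libraries). It was detected in 22.1% ± 6.68 of barhl2-positive against 7.93% ± 1.52 of barhl2-negative cells, in 19.7% ± 4.84 against 7.70% ± 1.59 for bhlhe22 and in 15.7% ± 8.75 against 8.44% ± 1.47 for mab21l1 (SD, n = 6 each). Among foxn4-positive cells it was 3.14% ± 2.98, against 11.7% ± 2.0 of foxn4-negative cells, lower in 6 of 6 libraries. None of these shares passed adjustment (0 of 6), the lowest adjusted p being 0.0625 in the exact permutation test, for foxn4, barhl2 and bhlhe22, each of which moved 1 way in 6 of 6 libraries. Without thinning, prdm13, barhl2, bhlhe22 and mab21l1 passed (4 of 6, adjusted p = 0.0469 in the exact permutation test). The non-retinal cells gave slc32a1 in 0.601% when thinned.

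Within the slc32a1-positive cells, foxn4 was higher in dividing than in non-dividing cells, and bhlhe22 and mab21l1 were lower. Over 5 libraries with enough cells (mCherry-enriched 1, 2 and 3, eGFP-enriched 1 and 3), foxn4 had 274, 55.4, 117, 212 and 83.5 CPM in dividing cells, against 38.2, 0, 16.8, 27.3 and 14.96 CPM in non-dividing cells. The gates did not overlap, and foxn4 rose by 2.81 (SE 0.20, adjusted p = 3.10e-08 in edgeR), in a comparison that called 14.2% of 6500 genes, 10% higher and 4.17% lower. For bhlhe22 the dividing cells had 304, 720.2, 362, 329.7 and 912 CPM and the non-dividing cells 1124, 427, 883, 645 and 1192 CPM, lower in dividing cells of 4 of 5 libraries, with a change of -0.85 (SE 0.20, adjusted p = 0.00515 in edgeR). For mab21l1 they had 347, 305, 573, 307 and 597 CPM against 826, 555, 499, 496 and 728 CPM, a change of -0.51 (SE 0.15, adjusted p = 0.0268 in edgeR). The changes of barhl2 (-0.58, adjusted p = 0.0558), prdm13 (-0.50, adjusted p = 0.199) and ptf1a (-0.43, adjusted p = 0.453) did not pass in edgeR. The share of members called, 1 higher and 2 lower of 6, can be read against 14.2% of all genes.

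Depth differed most here, with median UMIs of 5341 to 31274 in dividing and 5381 to 7024 in non-dividing slc32a1-positive cells. Without both libraries numbered 1, foxn4 still rose by 2.67 (adjusted p = 2.30e-05 in edgeR), but bhlhe22 at -0.44 and mab21l1 at -0.17 no longer passed. With cells thinned to 1500 UMIs foxn4 was at 1.82 (SE 0.62, adjusted p = 0.0886 in edgeR) and bhlhe22 at 0.15, and no member passed. Leaving out 1 library ended the call of bhlhe22 without eGFP-enriched library 1 (-0.78) and that of mab21l1 without mCherry-enriched library 1 or eGFP-enriched library 1 or 3 (-0.31, -0.45 and -0.58). It made prdm13 pass without mCherry-enriched library 2 or 3 (-0.75 and -0.62) and barhl2 pass without mCherry-enriched library 3 (-0.82). Of 14 neurogenic regulators 13 rose in the dividing slc32a1-positive cells, ascl1a by 3.48 and atoh7 by 3.13, and neurod1, named after its values were seen, fell by 0.45. Of 18 amacrine transcription factors 11 fell and 7 did not pass, tfap2e by 1.81, tfap2b by 1.43 and tfap2a by 1.01, and of 7 horizontal cell genes rem1 and onecut1 rose, by 1.62 and 1.57. Photoreceptor and ganglion cell genes rose as well, with 3 of 5 excitatory neuron genes higher (isl2b by 1.39, otx5 by 1.21 and crx by 0.87), and the part of mixed droplets in these cells was not tested.

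The horizontal side was read with lhx1a, found in 211 retinal cells, 131 of them in eGFP-enriched library 1. The gate was not confined to horizontal-like cells. An lhx1a UMI was found in 35.4% of 127 horizontal-like cells, 16.9% of 237 cells of the high-UMI cluster and 2.78% of 1257 bipolar-like cells. It was also found in 21.2% of the 113 cells of the unnamed elavl4 cluster. That cluster had the highest mean lhx1a level, 130 ± 28.9 CPM, overlapping with 108 ± 90.0 CPM in horizontal-like cells (SD, n = 3 each). Free RNA held 0 to 9.09 CPM of lhx1a, and its part in this gate was not tested. In eGFP-enriched library 1 the lhx1a-positive cells had a median of 36686 UMIs, against 7870 in lhx1a-negative cells. At least 10 lhx1a-positive cells were present in 4 libraries (mCherry-enriched 1 and 3, eGFP-enriched 1 and 3), and 0.614% of 12542 genes were called, 0.319% higher and 0.295% lower. No member passed (0 of 6), with 3 of them (prdm13, barhl2 and bhlhe22) at an unadjusted p under 0.05. The level of barhl2 was 277, 532, 219 and 402 CPM in lhx1a-positive cells, against 175, 152, 180.4 and 194 CPM in lhx1a-negative cells, without overlap, and its change was 0.80 (SE 0.19, adjusted p = 0.0511 in edgeR). The level of prdm13 was 68.7, 221, 117 and 239 CPM against 69.4, 49.6, 78.6 and 76.9 CPM, higher in 3 of 4 libraries, with a change of 0.94 (SE 0.25, adjusted p = 0.101 in edgeR). Both passed without the libraries numbered 1, prdm13 at 1.75 (adjusted p = 0.00129) and barhl2 at 1.28 (adjusted p = 0.0242) in edgeR, on 2 libraries with 12 and 52 lhx1a-positive cells. They also passed without mCherry-enriched library 1 (1.28 and 0.90) or eGFP-enriched library 1 alone (1.14 and 1.02). Without the unnamed elavl4 cluster the changes were 0.70 and 0.65 (adjusted p = 1.00 and 0.602 in edgeR).

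The other members did not pass by lhx1a. The level of bhlhe22 was 285, 156, 269.98 and 183 CPM in lhx1a-positive cells, against 254, 254, 299 and 347 CPM in lhx1a-negative cells (change -0.43, SE 0.20), and foxn4, mab21l1 and ptf1a were at -0.28, -0.15 and -0.18 (SE 0.28, 0.18 and 0.33, adjusted p of 1.00 for all 4 in edgeR). For foxn4 the 4 libraries disagreed, with 192, 12.97, 215 and 198 CPM in lhx1a-positive cells. Of 7 horizontal cell genes beside lhx1a, 4 rose in lhx1a-positive cells, tnr by 2.54, onecutl by 2.51, rem1 by 1.99 and onecut1 by 1.33, while prox1a was at 0.36. Of 8 inhibitory transmitter genes the glycine transporter gene slc6a5 and the GABA transporter gene slc6a1b rose, by 4.03 and 2.07, slc6a5 in 2 of 4 libraries only. Of 18 amacrine transcription factors pax10 fell by 1.26 and 17 did not pass, with tfap2a at 0.08 and tfap2b at 0.04.

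Setting lhx1a-positive cells directly against slc32a1-positive cells without lhx1a called 0% of 9678 genes, so 0 of 6 members, with 308 genes at an unadjusted p under 0.05 in edgeR and 24 called by DESeq2. In the 4 libraries bhlhe22 had 285, 156, 269.98 and 183 CPM in lhx1a-positive cells, against 326, 692, 367 and 1159 CPM in slc32a1-positive cells, lower in 4 of 4. Its change was -1.36 (SE 0.44, adjusted p = 0.995 in edgeR). For mab21l1 the values were 243, 376, 294 and 239 CPM against 364, 529.6, 321 and 713 CPM, also lower in 4 of 4 (-0.76, SE 0.23, adjusted p = 0.995 in edgeR). Without the libraries numbered 1, 581 genes were called in 2 libraries, with bhlhe22 at -2.41 (adjusted p = 1.28e-05) and mab21l1 at -1.04 (adjusted p = 0.0188) in edgeR. Leaving out eGFP-enriched library 3 alone gave 66 calls, bhlhe22 among them at -0.78 (adjusted p = 0.0282 in edgeR). In contrast, prdm13 and barhl2 were at -0.06 and -0.07 (SE 0.20 and 0.17), within 1 SE of no difference, with 161 ± 82.0 against 155 ± 78.2 CPM for prdm13 and 358 ± 139 against 364 ± 173 CPM for barhl2 (SD, n = 4).

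Detection in the same cell was counted over the 5107 thinned retinal cells and set beside the number expected if 2 genes were detected independently. The genes differed in their partners. The pair ptf1a and prdm13 shared 42 cells where 8.96 were expected (4.69 times), which was 40% of the 105 ptf1a-positive and 9.95% of the 422 prdm13-positive cells. The pair ptf1a and barhl2 shared 41 cells (2.29 times expected), and ptf1a and foxn4 shared 15 (0.884 times). For foxn4 the counts were below expectation with slc32a1 (42 cells, 0.458 times) and barhl2 (79 cells, 0.5678 times) and close to it with bhlhe22 (212 cells, 1.06 times). With slc32a1, prdm13 reached 2.57 times, barhl2 2.12, bhlhe22 1.92, mab21l1 1.86 and ptf1a 1.38 times the expected count (16 cells for ptf1a). With lhx1a, prdm13 reached 4.05 times (22 cells), barhl2 2.47 (27 cells), mab21l1 1.09 (19 cells) and bhlhe22 0.956 (15 cells). The pair slc32a1 and lhx1a shared 7 cells, 0.964 times expected. The ratios describe mixed cell types pooled over libraries and carry no test. At least 3 members, counted after thinning, were found together in 15.4% of the 1418 cells with a slc32a1 UMI before thinning. The share was 3.31% in the 3689 cells without a slc32a1 UMI before thinning, against 0.200% of the non-retinal cells.

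Levels were then read across the 18 retinal clusters, which were built without the 6 genes, their relatives and the gate genes, as mean ± SD over libraries with at least 10 cells. The amacrine-like class held 2 clusters that differed in ptf1a. The smaller one (cluster 12, 176 cells, led by s1pr1, pax6b and scrt1a) had ptf1a at 135 ± 65.7 CPM (82.5 to 209 CPM in 3 libraries), against 3.58 ± 7.47 CPM (0 to 16.9 CPM in 5 libraries) in the larger one (cluster 1, 555 cells, led by elavl3, tfap2a and pax10), with no overlap. Both clusters were alike in the gates, with 43.2% and 41.98% of cells dividing and 76.1% and 88.8% with a slc32a1 UMI. Next for ptf1a came an unnamed cluster of 183 cells led by ccnd1, fabp7a, insm1a, prdm1b and atoh7, at 116 ± 26.5 CPM (n = 3), and a bipolar-like cluster at 71.8 ± 37.3 CPM (n = 5), and neighbours in this order overlapped. In the unnamed cluster 88.5% of cells were dividing and 9.84% had a slc32a1 UMI.

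The prdm13 level was 412 ± 116 CPM in cluster 12 (n = 3) and 396 ± 97.1 CPM in horizontal-like cells (n = 3), which overlapped, and 213 ± 68.0 CPM in cluster 1 (n = 5) and 148 ± 44.6 CPM in the unnamed cluster led by ccnd1. Horizontal-like cells held ptf1a at 11.3 ± 9.13 CPM, so the 2 clusters with the most prdm13 lay far apart in ptf1a. The foxn4 level was highest in the progenitor-like clusters, at 881 ± 128 (n = 5) and 465 ± 56.8 CPM (n = 4). The unnamed high-UMI cluster followed at 314 ± 66.2 CPM (n = 4), with no overlap between these neighbours. In cluster 12 foxn4 was at 85.9 ± 36.8 CPM and in cluster 1 at 42.2 ± 30.6 CPM, with overlapping ranges.

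The amacrine clusters also differed in barhl2, bhlhe22 and mab21l1. In cholinergic amacrine-like cells barhl2 was at 990 ± 215 CPM (n = 3), with no overlap with cluster 12 at 662 ± 88.5 CPM, which in turn lay above cluster 1 at 463 ± 90.5 CPM. RGC-like cells held 323 ± 109 and horizontal-like cells 277 ± 47.9 CPM of barhl2, with overlapping ranges. For bhlhe22 cluster 1 was highest with 1058 ± 211 CPM, overlapping with cluster 12 at 768 ± 253 CPM, and cholinergic amacrine-like cells were at 184 ± 89.9 CPM (n = 3), below both. Bipolar-like clusters 14 and 2 came after cluster 12 in bhlhe22, at 543 ± 338 (n = 3) and 420 ± 133 CPM (n = 5). Bipolar-like cluster 0 was at 219 ± 35.6 CPM (n = 5). The mab21l1 level was 907 ± 302 CPM in cluster 12, 682 ± 147 in cluster 1 and 648 ± 111 in RGC-like cells, which overlapped, and 311 ± 10.4 CPM in cholinergic amacrine-like cells, below those of the amacrine-like and RGC-like clusters. In horizontal-like cells bhlhe22 and mab21l1 stood at 149 ± 148 and 197 ± 36.7 CPM. All 6 genes were excluded from clustering, but other amacrine genes were not, so these levels are a description.

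**Figure D5:**
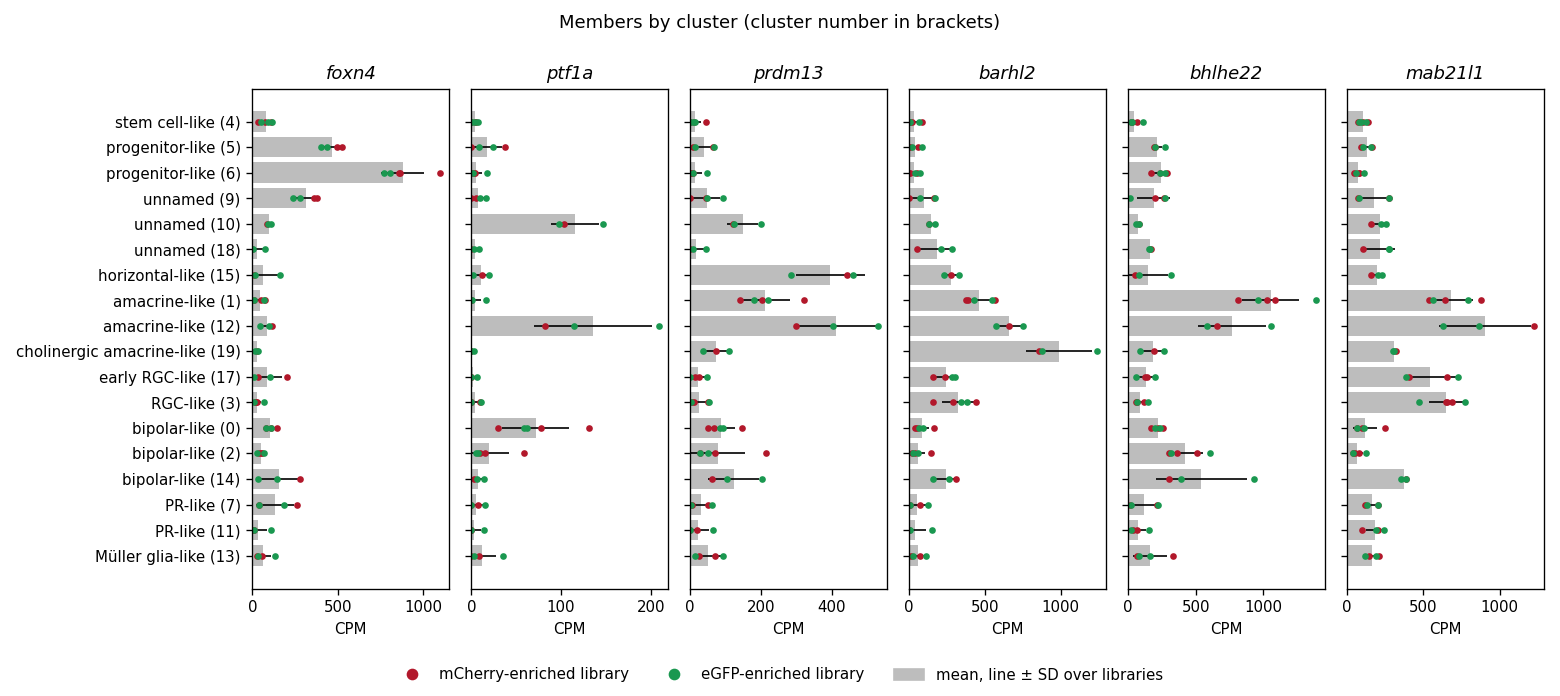
Level of each gene (CPM) by cluster, with grey bars at the mean and lines of ± SD over libraries with at least 10 cells, and dots for libraries (red mCherry-enriched, green eGFP-enriched). The highest bar is in a progenitor-like cluster for foxn4 (881 CPM), in amacrine-like cluster 12 for ptf1a, prdm13 and mab21l1 (135, 412 and 907 CPM), in cholinergic amacrine-like cells for barhl2 (990) and in amacrine-like cluster 1 for bhlhe22 (1058).

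Over the 18 retinal clusters, the genes most like each member in log2(CPM + 10) were listed by Pearson's r among genes with a mean of at least 20 CPM, which describes clusters that share libraries and carries no p. For foxn4 they were cdc25b (0.92), hes2.2 (0.91) and si:ch211-69g19.2 (0.87), and for ptf1a gadd45ba (0.85), alyref (0.72) and mlx (0.70). For prdm13 they were sinhcaf (0.82), s1pr1 (0.81) and tfap2c (0.81), and for bhlhe22 kif13ba (0.87), tfap2c (0.85) and lmo4b (0.85). For barhl2 they were rab3c (0.91), pax6b (0.89) and rbfox2 (0.89), and for mab21l1 pax6a (0.89), meis1b (0.86) and rbfox2 (0.85). Each of the 2 zebrafish pax6 genes was thus on the list of a different member.

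Between the sorts, no member passed. Over all retinal cells barhl2 had 178 ± 16.2 CPM in mCherry-enriched and 200.4 ± 9.52 in eGFP-enriched libraries, foxn4 189 ± 86.1 and 172 ± 42.0, and ptf1a 17.96 ± 11.3 and 14.6 ± 6.62 (SD, n = 3 each). For prdm13 the values were 82.8 ± 38.1 and 73.7 ± 21.4, for bhlhe22 234 ± 33.5 and 269 ± 85.2, and for mab21l1 283 ± 14.9 and 287 ± 21.7 CPM, mCherry-enriched libraries first. The differences were -0.21 to 0.15 on the log2 scale, with SEs of 0.14 to 0.39 and an adjusted p of 1.00 in edgeR for all 6 members. That comparison called 0.00848% of 11793 genes, 1 gene that fell (CABZ01021592.1, named after its values were seen), with 280 at an unadjusted p under 0.05 and 2 called by DESeq2. With the replicate number as a block 41 genes were called, and still 0 of the 6 members. No member passed in an edgeR interaction term of the sort with the dividing, slc32a1 or lhx1a gate, the lowest adjusted p being 0.731 for foxn4 by lhx1a, a difference of -1.71 (SE 0.55, unadjusted p = 0.00924).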

How the data were processed

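The authors deposited UMI counts per gene and barcode for all barcodes, made with Cell Ranger 6.1.2 on GRCz11 with the reporter sequences added (Seurat 4 is also in the submitters' processing notes; the matrix header names Cell Ranger 4). The deposited counts are not normalized. Cells needed at least 1000 genes and at most 10% mitochondrial UMIs, and no doublet caller was run. Clusters were built from 2000 variable genes (50 principal components, Harmony, 15 dimensions, 20 neighbours, Leiden resolution 1.0) without the members, their relatives, the gate genes and the reporters, and were called "X-like" when at least 3 fixed markers were each higher by a log2 difference of 0.5, the mean over the list reached 0.5, no other class had more markers among the 10 leading genes, and the cells were not shallow for their library. The high-UMI cluster met the first 2 conditions for progenitors but had 0 of their markers among its 10 leading genes, fewer than another class, and stayed unnamed. Resolution and naming threshold were set after a first clustering was seen. Counts were summed per library and gate (at least 10 cells a gate) and tested with edgeR 4.0.16 in R 4.3.3 (TMM, filterByExpr, quasi-likelihood, library as a block, none between the sorts), with Benjamini-Hochberg adjustment over all genes and a threshold of 0.05. Deviations of same-numbered libraries correlated at 0.185, 0.132 and 0.160 over 11793 genes, each over 0.1. The labels do not say whether replicate numbers pair the sorts. By the study's sorting scheme, each round gave an eGFP-positive sample and a double-positive or mCherry-positive sample. The sorts are thus paired by round if the replicate numbers follow the rounds. The main fit between sorts has no block, and the replicate block, which fits such a pairing, is given as an alternative. Shares of cells were compared by exact sign-flip permutation tests (scipy 1.17.1) on cells thinned to 1500 UMIs, which lost 0 cells. The fits were tested on simulated data, where 4-fold changes were recovered for 96.9% of changed genes in the dividing comparison, 93.9% for slc32a1, 76.6% for lhx1a, 85.3% for lhx1a against slc32a1, 90.1% within slc32a1-positive cells and 83.2% between sorts. False calls in the same order were 10, 11, 5, 3, 6 and 7 genes. These rates do not give the recovery of changes under 4-fold, such as those of the members by lhx1a and between sorts. Named genes are the 6 members and, from each list of pathway genes, those past the threshold with the largest changes (at most 4) plus gad1b, gad2, tfap2a, tfap2b, onecut1, prox1a, ascl1a, atoh7, bhlhe23, mab21l2 and prdm8, and for each member the 3 genes most like it over clusters. Members and lists were chosen with earlier results of these data known. Alternatives were other tests, scalings, filters, gates, depths and sets of libraries. Intervals and p-values do not cover PCR or embryo pooling, and no sequence or coordinate is given because no genome of the files' build was used here.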

Additional observations from a re-analysis of the deposited data

Results flagged for a closer look

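Of 57 sets of 4 to 6 libraries looked at, 5 had a library at one end that lay far from the rest by Dixon's test at 95%, where chance gives about 1 in 20 sets. In non-dividing cells, barhl2 was at 670.4 CPM in eGFP-enriched library 2, which has 25 such cells, against 242 to 372 CPM in the other 5. In slc32a1-negative cells of the same library it was at 39.9 CPM, against 93.1 to 122 CPM elsewhere. In lhx1a-positive cells, foxn4 was at 12.97 CPM in mCherry-enriched library 3 (12 cells), against 192 to 215 CPM in the other 3, and ptf1a was at 35.5 CPM in eGFP-enriched library 3, against 9.82 to 12.97 CPM. The share of dividing cells among foxn4-positive cells was 63.0% in mCherry-enriched library 2, against 79.2% to 83.3% in the other 5 libraries.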

How the results depend on the processing

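Of 682 alternative values for the members' changes, 573 kept their direction and side of the threshold, 39 lost the call, 32 gained one and 38 turned their sign. Of 261 alternatives for the shares of cells, 199 kept both, 47 lost a call, 4 gained one and 11 turned. Causes were not tested, except that leaving out a library leaves 5 libraries, for which the exact permutation test cannot go below 0.0625. The settings that leave out both libraries numbered 1, the high-UMI cluster or the elavl4 cluster, or average same-numbered libraries, were chosen after seeing the data.

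Genes called moved as follows. With DESeq2 they were 1510 for slc32a1 (712 in edgeR), 33 for lhx1a (77), 24 for lhx1a against slc32a1 (0) and 2 between sorts (1). With no filter on low counts they were 1911, 194, 272 and 42 for the same comparisons. With cells thinned to 1500 UMIs they were 1852 for dividing cells (4191), 142 for lhx1a, 94 for lhx1a against slc32a1, 76 for dividing slc32a1-positive cells (921) and 0 between sorts. With non-retinal clusters kept they were 2221 for slc32a1, 316 for lhx1a and 0 between sorts. Without the 5% of cells with most UMIs they were 1174 for slc32a1, 158 for lhx1a, 17 for lhx1a against slc32a1, 556 for dividing slc32a1-positive cells and 2 between sorts. Without the high-UMI cluster they were 1225, 2 and 540 for slc32a1, lhx1a against slc32a1 and dividing slc32a1-positive cells. Without both libraries numbered 1 they were 2355 for slc32a1, 140 for lhx1a, 581 for lhx1a against slc32a1, 268 for dividing slc32a1-positive cells and 6 between sorts. With no library block they were 285 for slc32a1, 0 for lhx1a and 408 for dividing slc32a1-positive cells. A minimum of 500 genes gave 45 and leaving out the elavl4 cluster 25 for lhx1a, a dividing gate of mki67 alone gave 1628 for slc32a1-positive cells, and at most 5% mitochondrial UMIs gave 0 between sorts. Leaving out 1 library in turn gave 2614 to 4355 for dividing cells, 142 to 1325 for slc32a1, 44 to 141 for lhx1a, 0 to 66 for lhx1a against slc32a1, 382 to 1117 for dividing slc32a1-positive cells and 0 to 51 between sorts. Of the shares of dividing cells, 4 passed, against 0 with no thinning, at 1000 UMIs, with non-retinal clusters kept, at most 5% mitochondrial UMIs, without both libraries numbered 1, with same-numbered libraries averaged and without any 1 library (0 to 0). Of the slc32a1 shares, 4 passed with no thinning.

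The replicate block between sorts called 41 genes, with prdm13 at -0.0927 and mab21l1 at 0.000782, and changed no member's call. Other signs that turned between sorts were ptf1a at 0.11 with DESeq2, 0.0195 with a minimum of 500 genes, 0.19 with non-retinal clusters kept and 0.0229 without both libraries numbered 1, and mab21l1 at 0.0472 with at most 5% mitochondrial UMIs, 0.12 with non-retinal clusters kept and 0.00272 without the high-UMI cluster. Leaving out 1 library in turn gave a range of -0.19 to 0.41 for foxn4, -0.51 to 0.34 for ptf1a, -0.35 to 0.36 for prdm13 and -0.0674 to 0.0375 for mab21l1.

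By lhx1a, foxn4 turned to 0.0631 without the elavl4 cluster and 0.29 with a gate of 2 UMIs, and ptf1a to 0.0183 without the 5% of cells with most UMIs and 0.83 without both libraries numbered 1; leaving out 1 library gave -0.55 to 0.0146 for foxn4 (highest without mCherry-enriched library 3) and -0.78 to 0.37 for ptf1a (highest without eGFP-enriched library 1). Against slc32a1-positive cells, prdm13 turned to 0.49 when thinned, 0.0692 without the 5% of cells with most UMIs, 0.0127 without the high-UMI cluster, 0.23 with a gate of 2 UMIs and 0.17 without both libraries numbered 1. There the ranges without 1 library were -0.13 to 0.14 for prdm13, -0.13 to 0.0584 for barhl2 and -0.33 to 0.83 for foxn4, whose lowest value was without eGFP-enriched library 3. By slc32a1, ptf1a ranged from -0.10 without eGFP-enriched library 3 to 0.81 without mCherry-enriched library 1. In dividing slc32a1-positive cells, ptf1a turned to 0.18 without both libraries numbered 1 and ranged from -0.67 to 0.15 without 1 library, prdm13 turned to 0.0676 without both, and bhlhe22 to 0.15 when thinned.

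In percentage points, the dividing share without thinning turned to 5.34 for ptf1a and 2.83 for bhlhe22, and without 1 library the slc32a1 share of ptf1a ranged from -5.22 to 13.7. The lhx1a share turned to 0.932 for foxn4, 6.04 for ptf1a and 1.84 for mab21l1 without thinning, to 0.126 for ptf1a without the elavl4 cluster and between -1.24 and 0.799 without 1 library, to -0.0630 for bhlhe22 and 0.665 for mab21l1 at 1000 UMIs, and to -0.0134 for bhlhe22 without the 5% of cells with most UMIs.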

Other observations

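The share of cells with a UMI was also read by class, with each cell thinned to 1500 UMIs; bracketed ranges are exact Clopper-Pearson 95% intervals and cover counting error only. A prdm13 UMI was found in 41.7% of 127 horizontal-like cells (33.0% to 50.8%), 24.2% of 731 amacrine-like cells (21.1% to 27.5%) and 8.18% of 110 cholinergic amacrine-like cells (3.81% to 14.96%), or 81.9%, 39.1% and 16.4% without thinning. A bhlhe22 UMI was found in 9.45%, 53.8% and 22.7% of these classes when thinned, and in 37.8%, 76.3% and 40% without. For ptf1a, 0 of 127 horizontal-like and 0 of 110 cholinergic amacrine-like cells had a UMI when thinned, which allows shares of up to 2.36% and 2.73% of cells with a UMI at this depth (3 counts of the total, not a limit on cells that express it), against 11.5% (7.25% to 17.01%) of the 183 cells of the unnamed cluster led by ccnd1 and fabp7a. Without thinning these ptf1a shares were 7.09%, 0.909% and 20.2%.

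Of 681 progenitor-like cells, thinned, 58.9% had a foxn4 UMI (55.1% to 62.6%) and 26.1% a bhlhe22 UMI (22.9% to 29.6%), or 92.5% and 60.2% without thinning. The non-retinal cells had 1.40% for foxn4, 0.802% for prdm13, 0.200% for ptf1a and 2.405% for bhlhe22 when thinned, at a median of 12460 UMIs before thinning, against 9693 in progenitor-like cells. Cells of all libraries are pooled here, so the shares are a description of these cells with no test between classes.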
